A study of Mus musculus with 72 samples.

Results

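Hepatocytes around the central vein of each liver lobule express a set of genes that hepatocytes near the portal tract express weakly or not at all. The genes followed here were Cyp2e1, Cyp1a2, Oat, Glul, Lect2, Gulo, Slc1a2, Axin2, Lgr5 and Rhbg. They were chosen by symbol, as known pericentral or Wnt-responsive liver genes, with earlier results of these data known. They are 10 of the 21400 gene symbols on the panel. They are covered by 19 of its 30146 probes, of which 18 passed the filter on low counts. The second Axin2 probe, at a mean of 0.295 CPM (probe counts scaled to a common, TMM-adjusted library total), did not. For a gene with several probes, the most abundant one is given unless another is named.

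The study measured liver RNA of female B6C3F1 mice given tertiary butyl alcohol (TBA) in drinking water. The animals were 9 to 11 weeks old, weighed 15 to 25 g and were housed singly. TBA was given at 0, 10, 20 or 40 mg/mL for 14 or 28 d, and the 0 mg/mL animals were the controls of each duration. Each of the 8 groups held 9 animals with 1 library each, so that replicates were separate animals. RNA came from formalin-fixed, paraffin-embedded tissue and was read with TempO-Seq, in which paired detector oligos ligate on a short stretch of each transcript and the ligated probes are counted. Libraries held 7770000 to 12700000 counts, except 40 mg/mL, 14 d replicate 5, which held 10796 and was left out. The 40 mg/mL, 14 d group therefore had 8 animals, and 71 libraries were used. All 9 hepatocyte markers that the panel carried, albumin and transthyretin among them, had counts in every group. TMM scaling factors had group medians of 0.888 to 1.21 and single values of 0.792 to 1.58, and they are given beside the results they touch.

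In the lobule, Wnt ligands and R-spondins from endothelial cells of the central vein keep β-catenin active in the hepatocytes next to it. There β-catenin acts through TCF/LEF factors on genes such as Glul, Axin2, Lgr5, Rhbg, Oat, Slc1a2 and Lect2, and it is also needed for full Cyp2e1 and Cyp1a2 expression. The last layers of pericentral hepatocytes fix ammonia as glutamine, while a broader pericentral band carries most of the cytochrome P450 enzymes that oxidise drugs and solvents.

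Promoter sequence was at hand in the RefSeq promoter table (GRCm38.p6) for 7 of the 10 genes, covering 250 bases before to 50 bases after the annotated start. The windows that hold a TCF/LEF core, those of Cyp2e1, Cyp1a2, Lect2 and Slc1a2, are printed beside the Glul window, which has none. The first 4 genes were called lower at 40 mg/mL for 14 d and Glul was not. Oat was also called lower there, though its window, not printed, has no such core. The Axin2 window, not printed, has none either, and Axin2 was not called. Gulo, also called lower, had no entry in the promoter table. A link between a core and a lower call was not tested. The Cyp2e1 window is chr7:140763569-140763868, plus strand, that of Cyp1a2 is chr9:57683606-57683905, minus strand, that of Lect2 is chr13:56548489-56548788, minus strand, that of Slc1a2 is chr2:102706188-102706487, plus strand, and that of Glul is chr1:153899679-153899978, plus strand. Capitals mark TCF/LEF cores (CTTTGAA with its variant CTTTGAT, and the related CTTTGTA with its variant CTTTGTT, on either strand), the TATA box TATAAA and the GCGTG core of the aryl hydrocarbon receptor element on either strand.
Cyp2e1: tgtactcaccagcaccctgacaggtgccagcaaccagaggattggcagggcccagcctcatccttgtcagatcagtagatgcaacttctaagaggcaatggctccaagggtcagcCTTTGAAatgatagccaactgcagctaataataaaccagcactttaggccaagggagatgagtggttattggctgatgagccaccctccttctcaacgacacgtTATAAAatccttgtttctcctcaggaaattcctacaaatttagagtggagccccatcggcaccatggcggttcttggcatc
Cyp1a2: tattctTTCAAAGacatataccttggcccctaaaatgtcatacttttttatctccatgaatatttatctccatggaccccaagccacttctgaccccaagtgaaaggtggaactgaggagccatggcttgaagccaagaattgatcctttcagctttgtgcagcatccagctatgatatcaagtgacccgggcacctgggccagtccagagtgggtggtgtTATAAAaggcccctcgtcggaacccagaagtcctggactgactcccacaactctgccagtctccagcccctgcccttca
Lect2: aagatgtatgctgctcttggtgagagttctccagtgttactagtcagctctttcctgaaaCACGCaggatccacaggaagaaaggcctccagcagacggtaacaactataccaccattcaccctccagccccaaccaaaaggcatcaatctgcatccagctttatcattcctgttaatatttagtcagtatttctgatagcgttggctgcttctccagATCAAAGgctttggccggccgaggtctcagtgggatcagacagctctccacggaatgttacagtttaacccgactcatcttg
Slc1a2: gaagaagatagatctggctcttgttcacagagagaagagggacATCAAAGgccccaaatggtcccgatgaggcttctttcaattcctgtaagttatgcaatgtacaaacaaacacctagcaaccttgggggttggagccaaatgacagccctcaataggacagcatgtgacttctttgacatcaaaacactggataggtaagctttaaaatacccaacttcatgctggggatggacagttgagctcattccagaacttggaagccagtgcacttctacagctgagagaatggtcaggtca
Glul: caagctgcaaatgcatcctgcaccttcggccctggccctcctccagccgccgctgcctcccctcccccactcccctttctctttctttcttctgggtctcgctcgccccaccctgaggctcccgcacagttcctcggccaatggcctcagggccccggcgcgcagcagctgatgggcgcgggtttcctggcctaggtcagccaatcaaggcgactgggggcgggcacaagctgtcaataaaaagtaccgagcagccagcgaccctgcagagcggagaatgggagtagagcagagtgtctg

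The core CTTTGAA stood on the plus strand of the Cyp2e1 promoter with its first base at -135 from the start. In the Cyp1a2 promoter it lay on the other strand at -244, and the Lect2 window held CTTTGAT on the other strand at -32. The Slc1a2 window held CTTTGAT on the other strand at -207. None of these cores was found in the windows of Oat, Glul or Axin2. Of all 32851 promoters in the table, 16.9% held such a core, so that a match is common in windows of 300 bases. TATAAA was found in the Cyp2e1 and Cyp1a2 windows and in 13.6% of all promoters, and GCGTG in the Lect2 window and in 32.4% of all promoters. These matches describe letters in a window, not bound sites.

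At 40 mg/mL for 14 d, 6 of the 10 genes were lower than in the controls and none was higher: Cyp2e1, Cyp1a2, Oat, Lect2, Gulo and Slc1a2 (edgeR quasi-likelihood test, Benjamini-Hochberg adjusted p under 0.05 over all 17050 tested probes). Among all tested probes, 3.68% were lower and 2.84% higher in this comparison, 6.52% in either direction. The 10 genes were chosen with earlier results of these data known, so their share of calls is not independent of these data. The median log2 fold change was -0.83 over the 10 genes and 0.06 over all tested probes. Glul, Axin2, Lgr5 and Rhbg were not called. In bulk tissue, fewer cells of a type and less RNA per cell cannot be told apart.

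Cyp2e1, the cytochrome P450 that oxidises ethanol, acetone and other small solvents, had a lowest, median and highest level of 1020, 3180 and 4700 CPM at 40 mg/mL for 14 d, against 5630, 6690 and 8330 CPM in the controls. All 8 treated animals lay below all 9 controls. The log2 fold change was -1.28 (SE 0.26), a 2.43-fold lower level, with an edgeR adjusted p of 0.000736. The other Cyp2e1 probes had log2 fold changes of -1.13 and -1.14, with edgeR adjusted p of 5.81e-05 and 3.09e-05. Cyp1a2, the P450 that the aryl hydrocarbon receptor induces in liver, ranged over 47.9, 129 and 207 CPM in treated animals, against 290, 366 and 419 CPM in controls. Here too no treated animal reached the lowest control. Its log2 fold change was -1.44 (SE 0.31), 2.71-fold lower, with an edgeR adjusted p of 0.00209. Its second probe had -1.22 with an edgeR adjusted p of 0.0035.

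Lect2, a protein that hepatocytes secrete into blood, had 107, 192 and 516 CPM at 40 mg/mL for 14 d (lowest, median, highest), against 467, 520 and 585 CPM in controls. The treated animals were spread widely: 6 of 8 lay below all controls, and the other two were at 476 and 516 CPM, inside the control range. The log2 fold change was -0.94 (SE 0.25, edgeR adjusted p = 0.014), and the second Lect2 probe gave -0.86 (edgeR adjusted p = 0.00186). Gulo encodes the last enzyme of ascorbate synthesis, which mice have kept. It measured 3.31, 14.7 and 20.3 CPM in treated animals, against 17.7, 22.8 and 31.6 CPM in controls, with 6 of 8 below all controls and a log2 fold change of -0.80 (SE 0.23, edgeR adjusted p = 0.022). The lowest Gulo value, in replicate 9, stood apart from the next at 9.31 CPM.

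Oat, the mitochondrial ornithine aminotransferase, measured 53.3, 162 and 387 CPM at 40 mg/mL for 14 d, against 232, 321 and 653 CPM in controls. The groups overlapped: 5 of 8 treated animals lay below all controls. The log2 fold change was -0.87 (SE 0.27, edgeR adjusted p = 0.0363). Slc1a2, the glutamate transporter GLT-1, measured 24.4, 74.0 and 148 CPM in treated animals, against 85.8, 129 and 225 CPM in controls. Again 5 of 8 lay below all controls, and the log2 fold change was -0.85 (SE 0.27, edgeR adjusted p = 0.0373). Of its other probes, Slc1a2_63688 was called (-0.83, edgeR adjusted p = 0.00881), and the others gave -0.86 and -0.52 with edgeR adjusted p of 0.0597 and 0.0915. The Oat and Slc1a2 calls were close to the threshold. Leaving out 1 library at a time ended the Oat call in 7 of 17 cases (highest edgeR adjusted p 0.11), the Slc1a2 call in 8 (0.122) and the Gulo call in 2 (0.06), and no call of Cyp2e1, Cyp1a2 or Lect2.

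**Figure D1:**
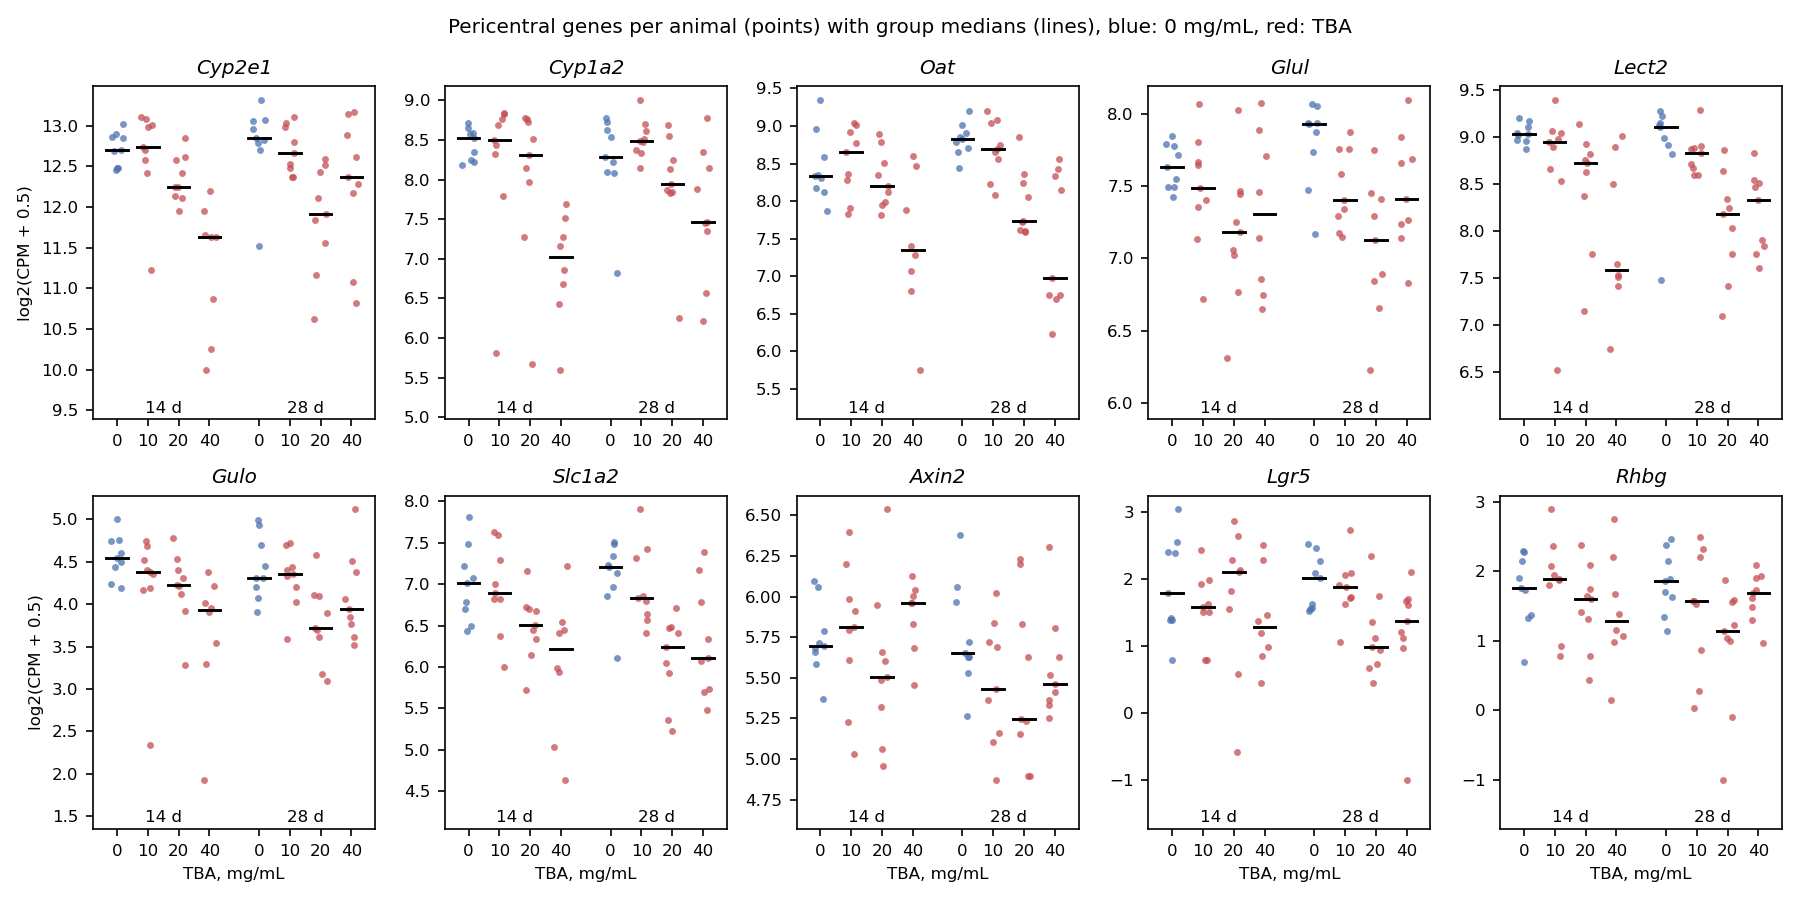
Level of each of the 10 genes per animal, as log2(CPM + 0.5), at 0, 10, 20 and 40 mg/mL TBA for 14 d and for 28 d; points are animals and lines are group medians. At 14 d every 40 mg/mL point of Cyp2e1 and Cyp1a2 lies below the blue control points, whereas the Axin2 and Glul points overlap the controls.

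Glul encodes glutamine synthetase, which marks the innermost pericentral layer. It measured 100, 158 and 269 CPM at 40 mg/mL for 14 d, against 171, 197 and 230 CPM in controls. Treated animals stood on both sides of the controls, 4 below all of them and 2 above. The log2 fold change was -0.24 (95% interval -0.60 to 0.12, edgeR adjusted p = 0.527), and the second probe gave 0.02 (-0.29 to 0.32). Axin2, both a target and an inhibitor of Wnt signalling, measured 43.5, 61.7 and 69.3 CPM in treated animals, against 40.9, 51.4 and 67.9 CPM in controls. No treated animal was below the control range and 1 was above it, with a log2 fold change of 0.14 (-0.22 to 0.50, edgeR adjusted p = 0.75). Lgr5, the R-spondin receptor, and Rhbg, an ammonium transporter, had few counts. Lgr5 medians were 1.94 CPM in treated and 2.97 CPM in control animals, with a log2 fold change of -0.62 (-1.42 to 0.18). For Rhbg they were 1.94 CPM in treated and 2.89 CPM in control animals, with -0.23 (-1.02 to 0.57). At this depth a change of either gene as large as that of Cyp2e1 lay outside the 95% interval for Rhbg but inside it for Lgr5.

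TMM scaling factors, which rise when a few abundant RNAs take a smaller share of the counts, were 0.978 to 1.58 (median 1.21) at 40 mg/mL for 14 d, against 0.847 to 0.961 (median 0.898) in controls. The summed hepatocyte markers had a median of 21500 CPM (10800 to 43800) in treated animals, against 50300 CPM (42500 to 59700) in controls, and 4 of 9 were called lower: Serpina1a, which has near-identical paralogs, Apoa1, Ttr and Alb. The summed levels of the 10 genes were 7000 CPM (3150 to 9580) in treated animals, against 14300 CPM (12200 to 16700) in controls. Sums for other liver cells follow. Summed sinusoidal endothelial markers had a median of 445 CPM (353 to 537) in treated animals, against 528 CPM (474 to 587) in controls. Summed Kupffer markers had 288 CPM (111 to 378) in treated animals, against 295 CPM (248 to 321) in controls. Summed stellate markers had 201 CPM (87.6 to 257) in treated animals, against 209 CPM (178 to 292) in controls.

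Summed erythrocyte markers had 33.4 CPM (2.70 to 164) in treated animals, against 22.3 CPM (12.6 to 37.8) in controls. The cholangiocyte, lymphocyte and neutrophil sums had medians of 32.5, 18.7 and 18.9 CPM in treated animals, against 38.6, 19.9 and 24.4 CPM in controls. Of the tested markers, 1 of 7 endothelial genes and 1 of 7 stellate genes were lower and 1 of 2 erythrocyte genes was higher; none of 8 Kupffer, 3 cholangiocyte, 4 lymphocyte and 1 neutrophil genes was called. The part that the hepatocyte-wide difference has in the lower pericentral levels was not tested. With each library's log2 TMM factor added to the model, none of the 10 genes was called (log2 fold changes of -0.34 for Cyp2e1 and -0.49 for Cyp1a2, edgeR adjusted p = 0.18 and 0.392; 6 of the 10 were called without it), where 1.17% of all probes were lower and 2.09% higher. Every treated factor (0.978 or more) lay above every control factor (0.961 or less), and the factors come from the same counts. The slope of the added factor was fitted over all 71 libraries, and both estimates were smaller in size than without it. The part of the factor in the lower levels was not tested, and no conclusion is drawn from the lost calls. Without replicates 1 and 7, whose factors were highest at 1.55 and 1.58, 3 genes were called: Cyp2e1 at -1.02, Cyp1a2 at -1.25 and Gulo at -0.92 (edgeR adjusted p = 0.0268, 0.0395 and 0.0466). Of all probes 0.93% were lower and 0.647% higher in that fit, against 3.68% and 2.84% with all 8 animals.

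The scale mattered for the direction of the weaker genes. Without TMM, on library totals alone, the median of all tested probes was 0.54, with 6129 probes higher (35.9%) and 293 lower (1.72%), against 484 higher and 627 lower with TMM. On that scale Cyp2e1 had a log2 fold change of -0.91, Cyp1a2 of -1.03, Lect2 of -0.57 and Slc1a2 of -0.49, all called, while Oat (-0.39) and Gulo (-0.33) were not called. Axin2 was called higher at 0.62 (edgeR adjusted p = 0.023), close to the median of all probes. Glul turned to 0.17 and Rhbg to 0.21, neither called. Scaled to the summed periportal list, the median of all probes was 0.68, with 6469 probes higher (37.9%) and 83 lower (0.487%). Cyp2e1 (-0.83) and Cyp1a2 (-0.90) were then lower and Axin2 (0.77, edgeR adjusted p = 0.035) higher, and Glul stood at 0.40 and Rhbg at 0.51, neither called. In all 3 scalings Cyp2e1 and Cyp1a2 had the lowest log2 fold changes of the 10 genes and Axin2 the highest.

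**Figure D2:**
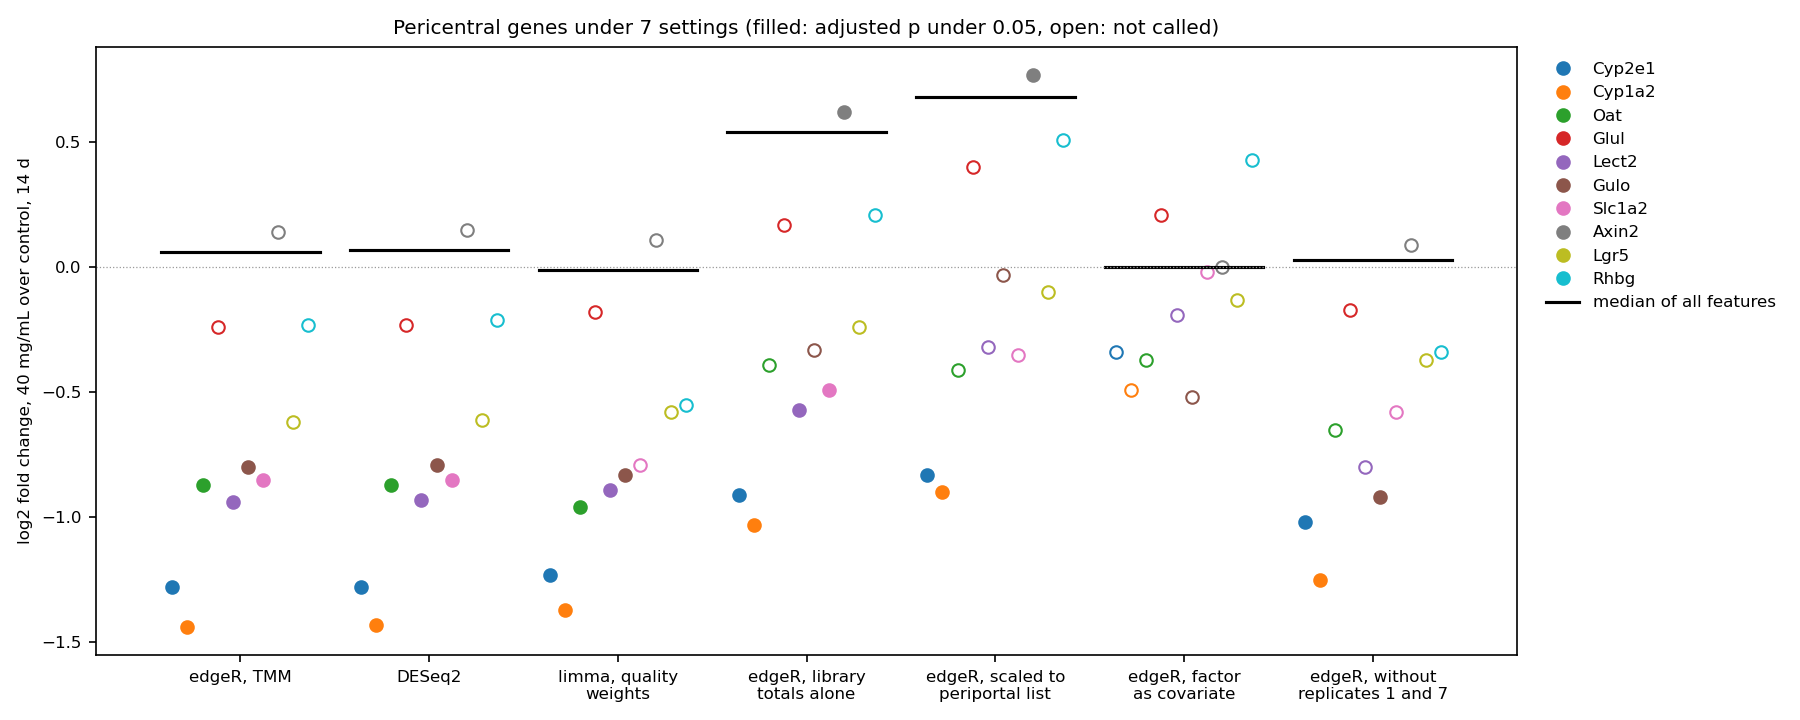
Log2 fold change of the 10 genes, 40 mg/mL over control at 14 d, under 7 settings; filled points have an adjusted p under 0.05, open points do not, and the black line is the median of all tested probes in that setting. Cyp2e1 and Cyp1a2 are lowest in all settings except the fit with the scaling factor as a covariate, where Gulo is lowest, and no point is filled there.

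To compare zones within a library, each gene was divided by the summed counts of 16 periportal genes, among them Cyp2f2, Cdh1, Pigr and the urea cycle genes Ass1 and Cps1. A sum weighs its abundant genes most. In 14 d controls it had a median of 13200 CPM, and the most abundant probes of Cyp2f2, Pigr and Cdh1 had 320, 168 and 25.7 CPM. The periportal list was lower as well: 5 of 16 genes were called lower and none higher at 40 mg/mL for 14 d (median log2 fold change -0.39), with Cyp2f2 at -1.41 (edgeR adjusted p = 0.00012). Relative to their sum, Cyp2e1 was 13.3% to 42.7% (median 26.5%) in treated animals, against 33.9% to 65.2% (median 46.0%) in controls. Cyp1a2 was 0.413% to 2.21% (median 1.31%) in treated animals, against 1.83% to 2.91% (median 2.50%) in controls. For Cyp2e1 6 of 8 treated animals, and for Cyp1a2 7 of 8, lay below all controls.

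The mean log2 ratio of Cyp2e1 was -1.97 ± 0.65 in treated animals (SD, n = 8) and -1.06 ± 0.32 in controls (SD, n = 9), a difference of -0.92. Its exact two-sided permutation p was 0.00128, adjusted over all tested probes 0.0472. For Cyp1a2 the mean was -6.35 ± 0.73 in treated animals (SD, n = 8) and -5.33 ± 0.19 in controls (SD, n = 9), a difference of -1.02 with an exact permutation p of 8.23e-05, adjusted 0.0260. The smallest p that this design can give is 4.11e-05. These were the 2 of 10 genes called, both lower; of all probes 0.199% were lower and 2.77% higher in this ratio. Glul and Axin2 differed by 0.20 and 0.67 against the periportal sum and were not called, with exact permutation p of 0.530 and 0.0494 (adjusted 0.669 and 0.174). The ratio turns on its denominator: against Cyp2f2 alone, 5 of 10 genes were higher and none lower, where 79.9% of all probes were higher, and against the hepatocyte list 2 were higher (Glul 0.85, Axin2 1.31) and none lower, where 65.5% of all probes were higher.

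**Figure D3:**
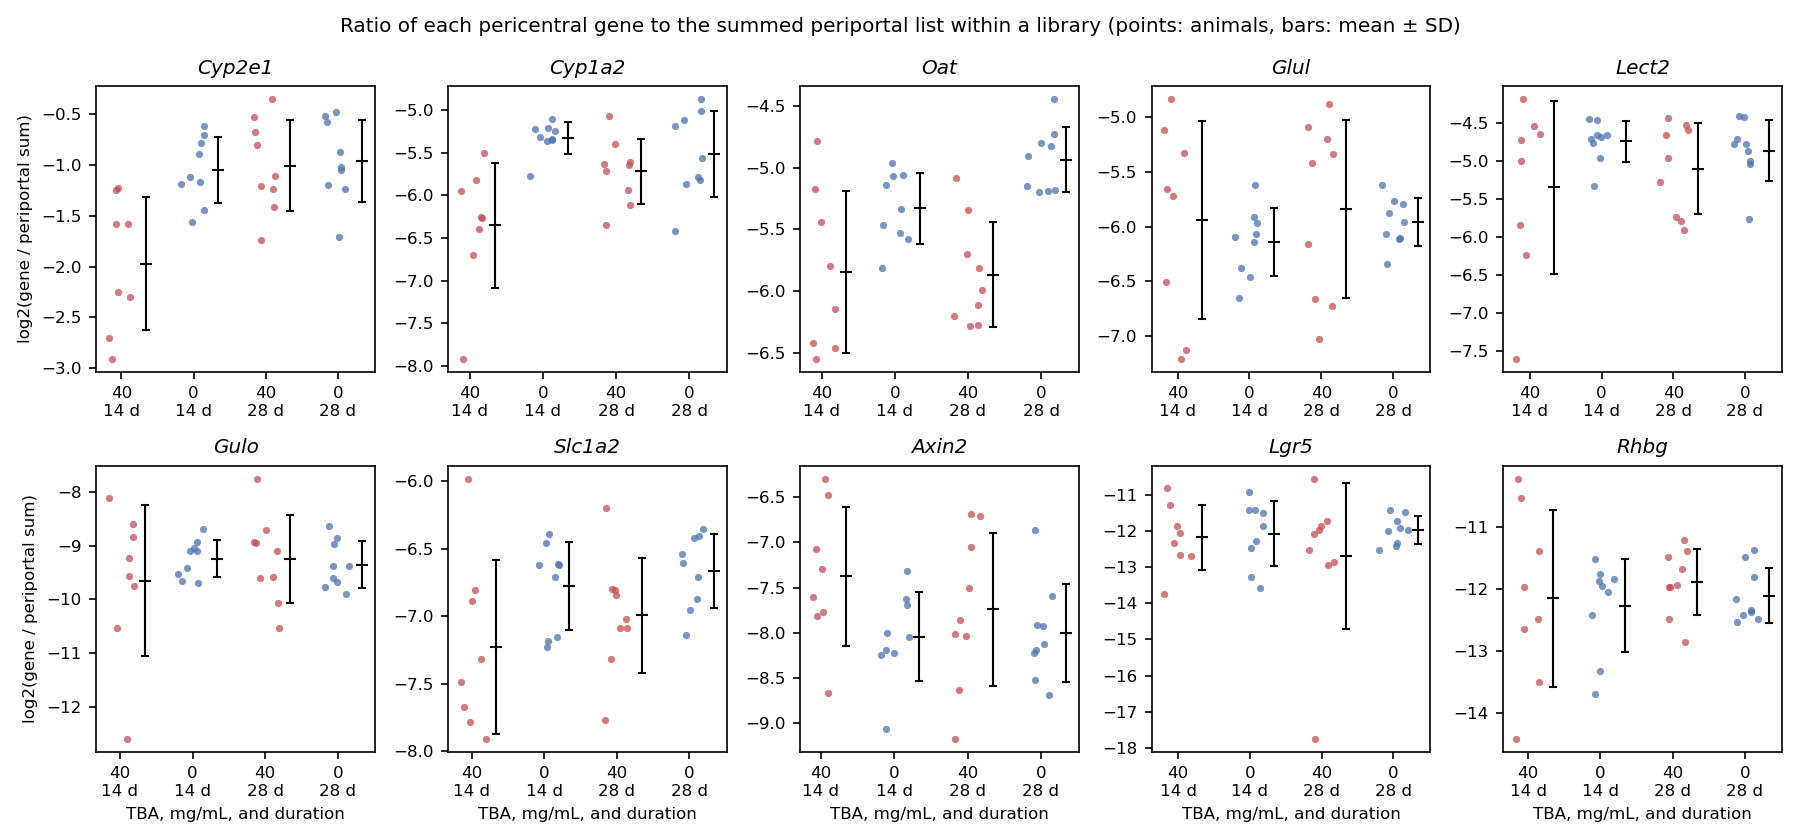
Log2 ratio of each gene to the summed periportal list within a library, at 40 mg/mL and 0 mg/mL for 14 d and for 28 d; points are animals and bars are mean ± SD. The 40 mg/mL points at 14 d lie mostly below the controls for Cyp2e1 and Cyp1a2, and the Axin2 points reach above them.

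Ratios of the 10 genes to Glul and to Axin2 are given as a description, with no test, because both denominators were taken after they had been seen not to fall, so that the ratios restate the fold changes above. The log2 ratio of Cyp2e1 to Glul was 3.96 ± 0.75 at 40 mg/mL for 14 d (SD, n = 8) and 5.09 ± 0.18 in controls (SD, n = 9), with 7 of 8 treated animals below all controls. Against Axin2 it was 5.40 ± 0.91 in treated animals (SD, n = 8) and 6.99 ± 0.35 in controls (SD, n = 9). The log2 ratio of Axin2 to Glul was -1.44 ± 0.63 in treated animals (SD, n = 8) and -1.90 ± 0.29 in controls (SD, n = 9), with 3 of 8 treated animals above all controls and 1 below.

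At 14 d none of the 10 genes was called at 10 or 20 mg/mL, where 0% and 0.0352% of all tested probes were called. At an unadjusted edgeR p under 0.05 there were 0 and 2, against 736 and 1032 of all 17050 probes. DESeq2 also called none of the 10, against 12 probes higher at 10 mg/mL, and 12 higher and 5 lower at 20 mg/mL. Limma called none of the 10, against 7 probes higher at 10 mg/mL, and 12 higher and 6 lower at 20 mg/mL. At 20 mg/mL all 10 log2 fold changes were below 0, from -0.53 for Slc1a2 to -0.09 for Lgr5, with a median of -0.29 against 0.02 over all probes. At 10 mg/mL 6 of 10 were below 0 and the median was -0.05. Cyp2e1 medians at 0, 10, 20 and 40 mg/mL were 6690, 6830, 4850 and 3180 CPM, and Cyp1a2 medians were 366, 362, 316 and 129 CPM. Only at 40 mg/mL did their groups separate from the controls.

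As a linear trend over dose at 14 d, the 6 genes called at 40 mg/mL were called lower and no gene was called higher, where 4.34% of all probes were lower and 3.65% higher. This trend and the 40 mg/mL comparison share animals. Per 10 mg/mL the log2 change was -0.34 (SE 0.06) for Cyp2e1 and -0.37 (SE 0.08) for Cyp1a2, with edgeR adjusted p of 0.000246 and 0.00104, and it was between -0.24 and -0.19 for Oat, Lect2, Slc1a2 and Gulo. Axin2 (0.03) and Glul (-0.06) were not called. With the log2 TMM factor added to the model none of the 6 trends was called, where 0.897% of all probes were lower and 1.62% higher. Every 40 mg/mL factor at 14 d lay above every 14 d control factor, and the part of the factor in these trends was not tested. Without 40 mg/mL, 14 d replicates 1 and 7 only those of Cyp2e1 and Cyp1a2 were (edgeR adjusted p = 0.0137 and 0.0301), where 0.803% of all probes were lower and 0.537% higher. Leaving out replicate 1 or replicate 7 alone at 40 mg/mL ended the Oat and Slc1a2 trend calls, and leaving out replicate 8 or 9 ended that of Gulo (highest edgeR adjusted p 0.0584, 0.0678 and 0.0615).

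At 28 d none of the 10 genes was called at any dose. The 20 mg/mL group was nearest: all 10 log2 fold changes were below 0, with a median of -0.81 against 0.03 over all probes. At an unadjusted edgeR p under 0.05, 8 of 10 were lower, against 1404 lower and 1179 higher of all 17050 probes. In that comparison 0.158% of all probes were called. Glul measured 74.4, 139 and 215 CPM at 20 mg/mL for 28 d (lowest, median, highest), against 143, 244 and 267 CPM in controls, with 5 of 9 below all controls. Its log2 fold change was -0.69 (95% interval -1.04 to -0.34, edgeR adjusted p = 0.0654). Slc1a2 had -0.98 and Cyp2e1 -0.87 (edgeR adjusted p = 0.074 and 0.0839). Cyp1a2 had -0.28 (-0.87 to 0.31) and Axin2 -0.23 (-0.58 to 0.12).

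These values lay close to the threshold and depended on the tool and on a library. DESeq2 called 4 of the 10 genes lower, where it called 0.563% of all probes lower and 0.745% higher. Limma with quality weights called 5 lower, where it called 1.99% of all probes lower and 1.03% higher. Without 0 mg/mL, 28 d replicate 3, 4 genes were called (Cyp2e1, Glul, Lect2 and Slc1a2), and the same 4 without 20 mg/mL, 28 d replicate 7, all lower. Of all probes 2.49% were lower and 1.98% higher without that control, and 1.26% lower and 0.781% higher without that treated animal. Most of the other fits with 1 library left out called no probe at all. The control, 0 mg/mL, 28 d replicate 3, had a scaling factor of 1.37, the other controls 0.792 to 0.957, and its Cyp2e1 level was 2950 CPM, against 6660 to 10300 CPM in the other controls. Scaling factors at 20 mg/mL for 28 d were 0.907 to 1.48 (median 1.14), and summed hepatocyte markers were 29700 CPM (median), against 49500 CPM in controls. Against the periportal sum none was called, as for 0% of all probes, with Slc1a2 at -0.73 (exact permutation p = 0.000206, adjusted 0.140). An unadjusted exact permutation p under 0.05 was found for 6 of 10, and the share of all probes under it was not counted.

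At 40 mg/mL for 28 d none of the 10 genes was called, where 0.00587% of all probes were. At an unadjusted edgeR p under 0.05 there were 3 of the 10, against 1078 of all 17050 probes. DESeq2 called 1 lower, where it called 0.0645% of all probes lower and 0.111% higher. Limma with quality weights called 3 lower, where it called 0.804% of all probes lower and 0.475% higher. Scaling factors were 0.798 to 1.4 (median 0.988) in treated animals, against 0.792 to 1.37 (median 0.888) in controls. All 10 log2 fold changes were below 0, with a median of -0.47. Oat measured 74.4, 125 and 376 CPM in treated animals, against 346, 453 and 588 CPM in controls. The treated values formed a lower run of 74.4 to 125 CPM in 5 animals and an upper one of 283 to 376 CPM in 4, and 8 of 9 lay below all controls. The log2 fold change was -1.16 (SE 0.26, edgeR adjusted p = 0.0736), and without replicate 5 the call was made (adjusted p 0.0283 by edgeR), where 0.0352% of all probes were lower and 0.0645% higher. Cyp2e1 measured 1810, 5290 and 9230 CPM in treated animals, against 2950, 7380 and 10300 CPM in controls, and the groups overlapped (-0.39, edgeR adjusted p = 0.865).

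Oat was also alone among the 10 genes in being called in the linear trend at 28 d, at -0.31 per 10 mg/mL (SE 0.06, edgeR adjusted p = 0.0157), where 0.0528% of all probes were lower and 0.0762% higher. Its medians at 0, 10, 20 and 40 mg/mL were 453, 413, 212 and 125 CPM. The call was lost without 40 mg/mL, 28 d replicate 3, 4 or 7, with edgeR adjusted p up to 0.0604. Relative to the periportal sum at 40 mg/mL for 28 d, Oat differed by -0.93 with 8 of 9 treated animals below all controls (exact permutation p = 0.000206, adjusted over all tested probes 0.106). At 10 mg/mL for 28 d the log2 fold changes ran from -0.32 for Glul to 0.21 for Cyp1a2, and no gene was called, as for 0% of all probes.

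**Figure D4:**
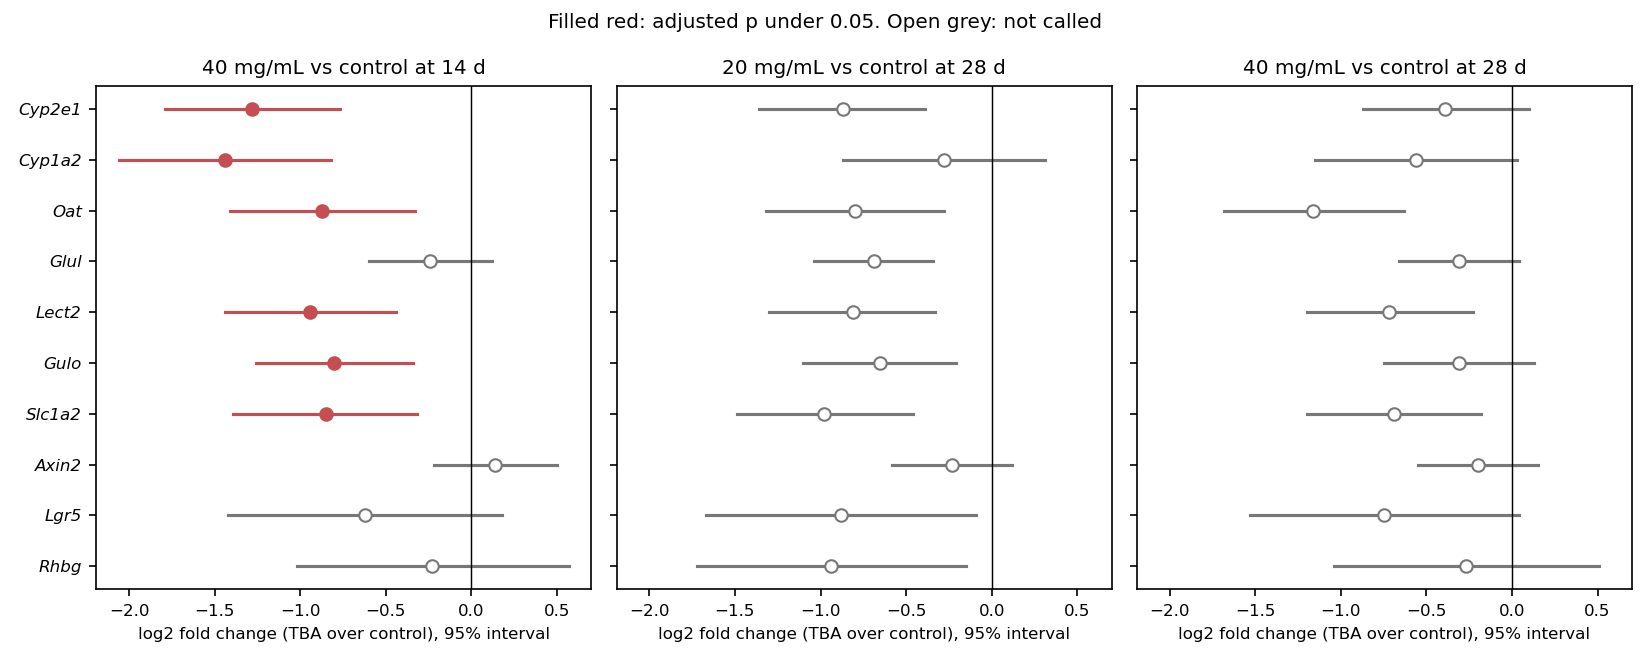
Log2 fold change of TBA over control with 95% intervals for the 10 genes at 40 mg/mL for 14 d, 20 mg/mL for 28 d and 40 mg/mL for 28 d; filled red points have an adjusted p under 0.05. The 6 filled points are all at 14 d, and at 28 d all points lie below 0 without a call.

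Whether the 40 mg/mL effect differed between durations was tested as an interaction. For Cyp2e1 the log2 fold change at 28 d minus that at 14 d was 0.90 (95% interval 0.20 to 1.59), and for Cyp1a2 it was 0.88 (0.03 to 1.73), with edgeR adjusted p of 0.57 and 0.764. Those 2 had an unadjusted edgeR p under 0.05, as had 1081 of all 17050 tested probes. Neither they nor any other of the 10 genes was called by edgeR, as for 0% of all probes, so a difference between durations was not shown. DESeq2 and limma also called none of the 10. Of all probes DESeq2 called 0.00587% lower and 0.123% higher, and limma called 0%. For Oat the difference was -0.28 (-1.03 to 0.46), and for Glul -0.08 (-0.58 to 0.43). The 20 mg/mL effects did not pass either, with differences from -0.79 for Lgr5 to -0.06 for Cyp1a2 (0% of all probes called). Nor did those at 10 mg/mL, from -0.49 for Rhbg to 0.38 for Lgr5 (0%). Between the 28 d and 14 d controls none of the 10 genes was called (log2 differences of -0.13 to 0.32, 0% of all probes called). At an unadjusted edgeR p under 0.05 there were 0 of the 10, against 516 of all 17050 probes.

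Between animals of the same group, the 10 genes did not all vary together. Deviations of log2 CPM from the group mean were correlated over 71 libraries for the 45 pairs. Cyp2e1 and Slc1a2 had a Pearson r of 0.79 and a Spearman rho of 0.76, and r was 0.77 without the 2 libraries farthest from the Cyp2e1 median. Cyp1a2 and Lect2 had 0.77 and 0.67 (0.66 without 2), and Glul and Lect2 0.74 and 0.70 (0.70 without 2). In these 3 pairs the permutation p of r was 1e-05, the smallest that 100000 permutations can give, and 5.6e-05 adjusted over the 45 pairs; that of rho was 1e-05 too, and 7.5e-05 adjusted. Axin2 had r between -0.24 and 0.26 with the other 9 genes. The scale entered here as well. On library totals r was 0.58 for Cyp2e1 and Slc1a2, 0.64 for Cyp1a2 and Lect2 and 0.53 for Glul and Lect2. Cyp2e1 and Glul had r of 0.50 with TMM scaling (rho 0.56, permutation p of r 0.00011, adjusted 0.00033) and 0.01 on library totals. Cyp2e1 and Axin2 had r of -0.13 with TMM scaling (rho -0.03, permutation p of r 0.279, adjusted 0.34) and -0.42 on library totals. A shared scaling factor is common to all values of a library.

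The probes whose deviations were most like those of Cyp2e1, of all tested, were Slc27a5 (r = 0.91, rho = 0.84), which encodes a bile acid ligase, Pigr (0.91, 0.87), the polymeric immunoglobulin receptor and a member of the periportal list, and Apoe (0.90, 0.84), an apolipoprotein. Those most like Glul included Plvap (0.78, 0.69), an endothelial protein, and Elovl5 (0.77, 0.73), a fatty acid elongase. Those most like Axin2 included Tbx3 (0.54, 0.50), a transcription factor known as a β-catenin target in liver, and Cluap1 (0.53, 0.48), a ciliary protein. These are descriptions over 71 libraries, chosen as the highest of many.

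Other pericentral genes were counted from a list of 17. At 40 mg/mL for 14 d 1 was lower and none higher, where 3.68% of all probes were lower and 2.84% higher, and the list's median log2 fold change was 0.12. The lower one was Slc13a3, a dicarboxylate transporter, at -1.24 (SE 0.34, edgeR adjusted p = 0.0145). Cyp2c29, a P450 with close paralogs that the nuclear receptor CAR induces, had 1.15 (edgeR adjusted p = 0.0722), Rnase4 -0.92 (0.0975) and Ahr, the aryl hydrocarbon receptor, 0.47 (0.118). At 20 mg/mL for 28 d Cyp2c29 was called higher, at 1.74 (SE 0.40, edgeR adjusted p = 0.0497), none of the 17 was lower and the median was -0.25, where 0.158% of all probes were called. That call was at the threshold, and with 1 library left out most fits of this comparison called no probe at all. Cyp2c29 was called in no other dose comparison. At 14 d its medians at 0, 10, 20 and 40 mg/mL were 1230, 3480, 2770 and 1630 CPM. At 28 d they were 1350, 3190, 4220 and 3980 CPM. At 40 mg/mL for 28 d none of the 17 was called, with Cyp2c29 at 1.34 (edgeR adjusted p = 0.33), and the median was -0.07. Of 32 Wnt pathway genes 26 were tested. At 14 d 2 of them were lower at 40 mg/mL, the receptors Fzd7 at -0.63 and Fzd8 at -1.02 (edgeR adjusted p = 0.0113 and 0.0174), none was higher, and the median was 0.02, against the same 3.68% lower and 2.84% higher of all probes. Apc (0.45) and Sfrp1 (-2.04), inhibitors of the pathway, were not called (edgeR adjusted p = 0.174 and 0.193). Sfrp1 had very few counts, with medians of 0.134 CPM in treated and 0.671 CPM in control animals. None of the 26 was called at 40 mg/mL for 28 d, and the median was 0.03.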

How the data were processed

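TempO-Seq libraries of 72 livers were deposited by the authors as raw counts per probe, per the labels and the values. Per the submitters' processing notes, bcl2fastq 2.20 and Bowtie were used; the Bowtie version, the genome build and the counting are not given in the sources used here. The symbol of a probe was its name without the trailing number, and all 10 genes were found. The library with under 100000 counts was left out.

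The other 71 libraries were fitted together in edgeR 4.0.16 (TMM, filterByExpr, robust quasi-likelihood, 8 group means, R 4.3.3), with p-values adjusted by Benjamini-Hochberg over 17050 probes per comparison. CPM were computed from TMM-scaled totals. Ratios used counts plus a pseudocount of 0.5 and exact permutation tests over animals in Python 3.11.15; their p-values were adjusted over all tested probes, not over the 10 genes as first planned. Alternatives used DESeq2 1.42.0, limma 3.58.1, other scalings and filters, and each library left out. Fits and permutation tests were checked on simulated data. Correlations used 100000 permutations.

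All 10 genes are named, each by its most abundant probe. Of other lists, at most 4 genes with the smallest p in the 40 mg/mL comparisons are named. For Cyp2e1, Glul and Axin2 the probes with the highest correlation of within-group deviations are named, some of which are not reported here. The 10 genes and the lists were chosen with earlier results of these data known. The labels give no batch or pairing. Depth was 7770000 to 12700000 counts per library, of which Lgr5 and Rhbg had at most 69 and 63.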

Additional observations from a re-analysis of the deposited data

Results flagged for a closer look

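Of 80 sets of values, 10 genes in 8 groups, 13 had a lowest or highest animal that stood apart from the rest of its group by Dixon's criterion at 95%. Chance flags about 1 in 20 of such sets. The 10 genes share libraries and some vary together, so the sets are not independent and the 13 cannot be weighed against that rate. The libraries with most of these flags were 10 mg/mL, 14 d replicate 2 and 0 mg/mL, 28 d replicate 3.

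In 10 mg/mL, 14 d replicate 2, with a TMM scaling factor of 1.26 where the rest of its group had 0.838 to 0.971, Cyp2e1 was 2390 CPM (next 5490), Cyp1a2 55.5 CPM (next 221), Lect2 91.5 CPM (next 368) and Gulo 4.56 CPM (next 17.4). In 0 mg/mL, 28 d replicate 3, a control with a scaling factor of 1.37 where the other controls had 0.792 to 0.957, Cyp2e1 was 2950 CPM (next 6660), Cyp1a2 113 CPM (next 270), Lect2 178 CPM (next 449) and Slc1a2 68.4 CPM (next 116). Cyp1a2 was also low in 20 mg/mL, 14 d replicate 9 at 50.6 CPM (next 155) and in 20 mg/mL, 28 d replicate 9 at 75.9 CPM (next 228), with scaling factors of 1.26 and 1.48, the highest of their groups. Gulo was low at 3.31 CPM (next 9.31) in 40 mg/mL, 14 d replicate 9, and Lgr5 was at 0 CPM (next 1.46) in 40 mg/mL, 28 d replicate 8. The flagged high value was Lect2 at 624 CPM (next 480) in 10 mg/mL, 28 d replicate 9. The part of the scaling factor in these values was not tested.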

How the results depend on the processing

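At 40 mg/mL for 14 d, where 6 of the 10 genes were called, the count was 3 with scaling to the periportal list (2 lower, 1 higher), 3 without replicates 1 and 7 and 0 with the TMM factor added to the model; leaving out 1 library at a time gave 4 to 6. The linear trend at 14 d (6) gave 3, 2 and 0 under the same settings and 4 to 6 with 1 library left out. With scaling to the periportal list only Cyp2e1 and Cyp1a2 of the 6 trends stayed called, the third call was a gene outside the 6, and Gulo turned to 0.02. Of all probes 0.481% were lower and 50.8% higher in that trend. The added TMM factor was higher in every 40 mg/mL, 14 d animal than in every 14 d control. Its part in the calls was not tested, and no conclusion about dose is drawn from the 0 calls.

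At 20 mg/mL for 28 d (0 called) DESeq2 gave 4, limma with quality weights 5, a mean of at least 5 CPM 2 and the groups of the comparison alone 2. Library totals, probes summed per gene and the fit without replicates 1 and 7 at 40 mg/mL, 14 d gave 1 each. With 1 library left out the count was 0 to 4. Of all probes DESeq2 called 0.563% lower and 0.745% higher, and limma 1.99% and 1.03%. The CPM filter gave 0.417% lower and 0.586% higher, and the groups alone 0.188% and 0.174%. Library totals gave 0.106% lower and 0.809% higher, summed probes 0.295% and 0.236%, and the fit without those replicates 0.243% and 0.162%. At 40 mg/mL for 28 d (0 called) limma gave 3, and DESeq2, the periportal scaling, the mean of at least 5 CPM and the added TMM factor gave 1 each. With 1 library left out the count was 0 to 1. Of all probes limma called 0.804% lower and 0.475% higher, and DESeq2 0.0645% and 0.111%. The periportal scaling gave 0.0293% lower and 19.1% higher, the CPM filter 0.0298% and 0.0497%, and the added factor 0.0411% and 0.346%. The trend at 28 d (1 called) gave 2 with DESeq2, 4 with limma, 2 with the groups alone and 0 with the failed library kept. With 1 library left out the count was 0 to 1. Of all probes DESeq2 called 0.24% lower and 0.147% higher in this trend, and limma 1.31% and 0.745%. The groups alone gave 0.222% lower and 0.197% higher, and the failed library kept 0% and 0.0237%. For the periportal ratio at 40 mg/mL for 14 d (2 called, 2 lower), a pseudocount of 5 gave 1, lower. The direction turned with the denominator: Cyp2f2 alone gave 5 higher and 0 lower, and the hepatocyte list 2 higher and 0 lower. The cause of these changes was not tested. The counts of the other comparisons stayed within 1.5 times under each alternative run. No paired analysis was possible because replicate numbers were given in the order of the samples and the labels pair no animals.

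Calls near the threshold rest on 8 or 9 animals a group, and at up to 69 counts a library changes of Lgr5 and Rhbg were not detectable unless large.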
